A study of Homo sapiens with 4 samples.

Results

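The eIF4G family comprises 3 genes, EIF4G1, EIF4G2 and EIF4G3, whose proteins act as scaffolds in translation initiation. Their mRNAs were examined in RNA immunoprecipitation sequencing (RIP-seq) of IGF2BP3, an RNA-binding protein that reads N6-methyladenosine (m6A) and stabilizes mRNAs. The family was chosen around EIF4G3, which was selected on its fold enrichment in these same peak lists, one of the highest of any gene. Its members were then the peaks whose summit lay in a GENCODE release 44 exon of EIF4G1, EIF4G2 or EIF4G3. They numbered 35 of 44622 peaks in replicate 1 and 30 of 42723 peaks in replicate 2. Every value of these peaks is therefore given as a description, with no test.

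The series consisted of 4 samples of the established cell line OE-19, derived from an adenocarcinoma of the esophagogastric junction, with no treatment or genetic change named in the labels. The labels name UV fixation of the cells before lysis, which the methods of the study do not mention for RIP. In 2 replicates RNA was recovered with an antibody against IGF2BP3, and 2 further replicates were input made without antibody. Values of the input samples were not analysed here, so a higher RNA level and more IGF2BP3 per RNA cannot be told apart. Of 6 epithelial markers, only CDH1 had exonic peaks (4 and 8), whereas EPCAM, KRT8, KRT18, KRT19 and ERBB2 had none. Of 4 markers of other cell types, VIM, PTPRC and PECAM1 had none and COL1A1 had 5 peaks in replicate 2 alone. A peak list does not measure expression, and an mRNA without a called peak may still be expressed and bound.

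An eIF4G protein joins the cap-binding protein eIF4E, the RNA helicase eIF4A, the poly(A)-binding protein and the eIF3 complex, and so brings the small ribosomal subunit to the mRNA. EIF4G1 encodes the main form and EIF4G3 a close paralog with the same binding partners. EIF4G2, also called DAP5, lacks the N-terminal part that binds eIF4E and the poly(A)-binding protein, and its translation starts at a codon other than AUG. The annotated first codon of its coding sequence (CDS) was GTG in the DNA, against ATG in both paralogs.

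To compare the paralogs, exonic peaks were counted on each gene. EIF4G3 carried nearly all of them. It had 34 peaks in replicate 1 and 30 in replicate 2, a mean of 32 ± 2.83 (SD, n = 2). EIF4G1 had 0 in both replicates. EIF4G2 had 1 in replicate 1 and 0 in replicate 2, a mean of 0.5 ± 0.707 (SD, n = 2). Over all 20046 protein-coding genes, 32.6% had an exonic summit in replicate 1, 31.6% in replicate 2 and 28.0% in both. Lacking a peak was thus the more frequent outcome among coding genes, whereas a count like that of EIF4G3, which was chosen from these same lists, was rare. Ranked by the number of exonic peaks, EIF4G3 was 55th of 6537 genes in replicate 1 and 93rd of 6341 in replicate 2. Per kb of its canonical mRNA it had a mean of 4.69 ± 0.442 summits (SD, n = 2), against 0.132 ± 0.186 (SD, n = 2) for EIF4G2.

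**Figure D1:**
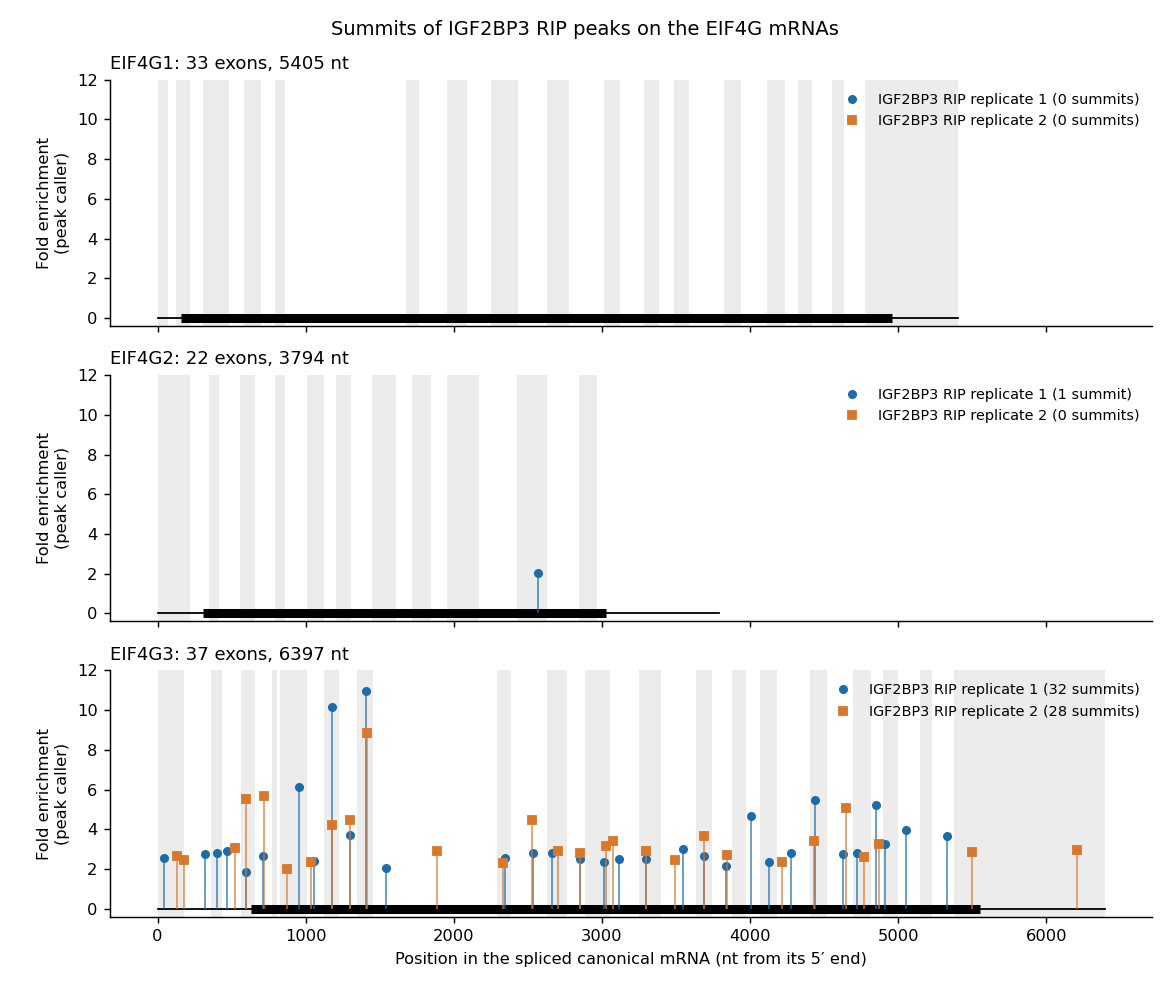
Summits of IGF2BP3 RIP peaks along the spliced canonical mRNAs of EIF4G1, EIF4G2 and EIF4G3, with the position in nt on the x axis and the fold enrichment given by the peak caller on the y axis. Grey bands are every other exon, the thick black bar is the CDS, circles are replicate 1 and squares replicate 2. EIF4G3 held 32 and 28 summits along its whole length, EIF4G2 1 summit in replicate 1, and EIF4G1 none.

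EIF4G3 (ENSG00000075151.24) lies on the minus strand of chromosome 1 at chr1:20806292-21177285 (hg38), and its canonical transcript has 37 exons and 6397 nt. EIF4G1 (ENSG00000114867.22) lies on the plus strand at chr3:184314495-184335358 with 33 exons and 5405 nt. EIF4G2 (ENSG00000110321.19) lies on the minus strand at chr11:10797050-10808940 with 22 exons and 3794 nt. The genes spanned 371, 20.9 and 11.9 kb, respectively, a far wider range than that of their mRNAs. When each mRNA was aligned to the genome, EIF4G1 matched only its own gene. EIF4G3 and EIF4G2 each matched 1 other locus over 456 and 303 nt, which is 7.13% and 7.99% of the mRNA.

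The strongest peak of the family was on exon 13 of EIF4G3, in the CDS. Its fold enrichment, the ratio of RIP pileup to local background at the summit, was 10.9 in replicate 1 and 8.86 in replicate 2, a mean of 9.90 ± 1.48 (SD, n = 2). Among all peaks of a list it ranked 2nd and 14th. The caller q, which is its p-value corrected for the number of positions tested, was 1.37e-13 and 3.64e-08. By its highest peak EIF4G3 was 2nd of 6537 genes in replicate 1 and 10th of 6341 in replicate 2, which is the property it was picked for. Exon 11 was next, with a fold enrichment of 10.2 in replicate 1 and 4.22 in replicate 2 (caller q 3.34e-10 and 0.0440). Exon 29 followed at 5.50 and 3.42, with a caller q of 0.00671 in replicate 1 and 1 in replicate 2. The peak on exon 13 was thus the one that stood out in both replicates, and those on exons 11 and 29 depended more on replicate 1.

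The stretches of these exons that both replicates called are shown because these exons had the highest mean fold enrichment over the replicates, next to the EIF4G1 exons that align with them in the protein. Capitals mark exon bases and lower case marks intron bases, each read 5′ to 3′ on the strand of the gene from the hg38 genome. They lie at chr1:20949987-20950130 (exon 13), chr1:20972991-20973115 (exon 11) and chr1:20849432-20849505 (exon 29) on the minus strand, and at chr3:184319689-184319801 (EIF4G1 exon 7) and chr3:184327586-184327704 (EIF4G1 exon 25) on the plus strand. All are coding exons. Exon 13 had no partner exon in EIF4G1 by the rule of reciprocal best partners. The exons on either side of it, 12 and 14, were paired with EIF4G1 exons 8 and 10. EIF4G1 exon 9, of 67 nt, lies between those and had no peak.
EIF4G3 exon 13, fold enrichment 10.9 and 8.86: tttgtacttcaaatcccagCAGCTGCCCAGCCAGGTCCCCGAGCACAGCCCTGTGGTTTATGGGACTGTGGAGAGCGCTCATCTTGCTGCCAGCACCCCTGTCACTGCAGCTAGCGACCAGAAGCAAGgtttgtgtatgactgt
EIF4G3 exon 11, fold enrichment 10.2 and 4.22: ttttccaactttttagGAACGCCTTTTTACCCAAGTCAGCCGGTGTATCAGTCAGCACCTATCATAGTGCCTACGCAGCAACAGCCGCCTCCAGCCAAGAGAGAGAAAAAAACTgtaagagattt
EIF4G1 exon 7, aligned with exon 11, no peak: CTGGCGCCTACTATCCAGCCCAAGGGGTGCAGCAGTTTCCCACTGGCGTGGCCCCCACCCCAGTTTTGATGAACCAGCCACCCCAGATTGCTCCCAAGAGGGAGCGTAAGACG
EIF4G3 exon 29, fold enrichment 5.50 and 3.42: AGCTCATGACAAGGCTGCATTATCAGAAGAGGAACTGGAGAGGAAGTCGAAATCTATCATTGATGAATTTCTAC
EIF4G1 exon 25, aligned with exon 29, no peak: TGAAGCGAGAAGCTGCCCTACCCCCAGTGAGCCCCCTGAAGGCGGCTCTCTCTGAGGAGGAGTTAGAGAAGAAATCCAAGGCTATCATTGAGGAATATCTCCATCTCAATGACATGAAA
The called stretches on exons 13 and 11 ran past both splice sites into the introns, with 109 of 144 and 98 of 125 bases in the exon. The stretch on exon 29 lay wholly within the exon.

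Most of the other EIF4G3 peaks were weak, with a caller q of 1 for 23 in replicate 1 and 20 in replicate 2. A caller q of at most 0.05 was given to 6 (17.6%) and 5 (16.7%), against 9.77% and 7.47% of all peaks, and no weight can be put on that excess because the gene was chosen for its high values. The median fold enrichment of its peaks was 2.83 and 3.03, close to the medians of 2.92 and 2.90 over all peaks of the lists. In replicate 1 the peaks with a low q were on exons 9, 11, 13, 26, 29 and 32, with fold enrichments of 6.12, 10.2, 10.9, 4.68, 5.50 and 5.21. In replicate 2 they were on exons 5, 6, 11 and 13, with 5.54, 5.67, 4.22 and 8.86, and on an exon outside the canonical transcript with 4.59. Only exons 11 and 13 were on both lists. In replicate 1 the 34 peaks shared 18 distinct values of −log10 p, and 7 of them had the same one, 2.96.

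Although weak, the peaks recurred. Of the EIF4G3 peaks, 29 of 34 in replicate 1 (85.3%) and 28 of 30 in replicate 2 (93.3%) overlapped a peak of the other replicate, against 60.2% and 64.2% of all peaks. No weight can be put on this excess either, because the gene was chosen from these same lists. A summit was present in both replicates in 26 of 37 exons, in replicate 1 alone in 6, in replicate 2 alone in 1 and in neither in 4. The exons without any were 7, 8, 25 and 35. Exons 7 and 8, of 33 and 21 nt, were the shortest of the transcript, and exons 25 and 35 had 95 and 82 nt. In 16 of the 26 shared exons the summits of the replicates lay within 20 nt of each other. Toward the 3′ end the replicates differed, as exons 33 to 36 had summits in 3 of 4 exons in replicate 1 and in 0 in replicate 2, whereas the last exon, 37, had 2 summits in replicate 2 and 0 in replicate 1.

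**Figure D2:**
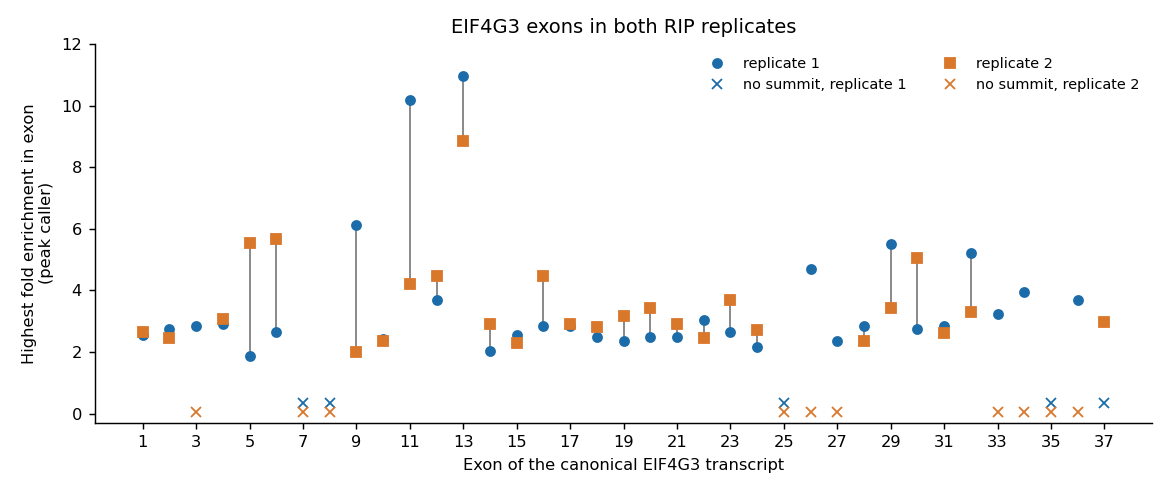
Highest fold enrichment given by the peak caller in each of the 37 exons of the canonical EIF4G3 transcript, with the exon number on the x axis. Circles are replicate 1 and squares replicate 2, grey lines join the replicates of an exon, and crosses at the bottom mark exons without a summit. Exon 13 was high in both replicates at 10.9 and 8.86, exon 11 mainly in replicate 1 at 10.2 against 4.22, and most other exons lay between 2 and 4.

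The size of the peaks was next compared between the replicates. Over the 26 exons with a summit in both replicates, the higher fold enrichment exceeded the lower by a median of 1.25 times and by more than 2 times in 4 exons. These were exons 5, 6, 9 and 11. The largest ratio was 3.06, in exon 9 (6.12 in replicate 1 and 2.002 in replicate 2), while exons 5 and 6 were higher in replicate 2. Across these exons, which share libraries and an mRNA, the correlation of the replicates was 0.34 by Pearson's r on the log2 scale and 0.13 by Spearman's rho (n = 26). Without exons 13 and 11 they were −0.16 and −0.06 (n = 24). Beyond these exons, the order of the EIF4G3 exons by fold enrichment was thus not shared between the replicates. Spearman's rho of the mean fold enrichment was −0.35 with exon length, 0.23 with the length of the shorter flanking intron and −0.10 with GC content (n = 26).

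By their medians, peaks on EIF4G3 were about as wide as the exons that held them. Their median width on canonical exons was 133.5 bp in replicate 1 and 127 bp in replicate 2, against a median length of 127.5 and 133.5 nt for the exons that held them. Single peaks departed from this either way, as in replicate 1 with 40 bp on exon 33 of 99 nt and 141 bp on exon 5 of 96 nt. A median of 93.7% and 99.1% of a peak lay in exon sequence. Within the exon, the summit lay at a median of 46.1% and 51.3% of its length. Exon 14, the longest wholly coding exon at 840 nt, was covered by a single peak of 852 and 857 bp with a fold enrichment of 2.05 and 2.90. The last exon, 37, of 1022 nt, was covered only in part, by peaks of 426 and 254 bp in replicate 2. One further summit of replicate 2 lay in an intron, 7 nt from exon 27, with a fold enrichment of 2.77 and a caller q of 1, and was not counted as a member.

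By region of the canonical mRNA, 27 of 32 summits in replicate 1 and 23 of 28 in replicate 2 were in the CDS, a share of 84.4% and 82.1% (mean 83.3% ± 1.58, SD, n = 2). The CDS makes up 77.0% of that mRNA. The 5′ untranslated region (UTR) had 5 and 4 summits, and the 3′ UTR, of 840 nt, had 0 and 1. The stretch aligned with EIF4G2 starts after residue 788, within exon 19. The coding exons wholly before it encode most of those N-terminal residues, with the part that binds the poly(A)-binding protein and eIF4E. Of these 14 exons (5 to 18), 12 had a summit in each replicate. Of the 19 coding exons after them, which encode the parts that bind eIF4A and eIF3, 16 and 12 did. Exons with a summit in both replicates numbered 12 in the first stretch and 11 in the latter. The median of their mean fold enrichment was 3.68 and 2.75. In replicate 1 alone, the middle values of these exons were 2.66 and 2.83 in the first stretch and 2.74 in the latter. In replicate 2 they were 2.90 and 4.22, against 3.16. The gap was thus absent in replicate 1. Exons 5, 6 and 9 had means above 3.68 but were each high in 1 replicate only. They had 1.87, 2.66 and 6.12 in replicate 1, and 5.54, 5.67 and 2.002 in replicate 2.

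Peaks also lay on 2 EIF4G3 exons outside the canonical transcript, both called in both replicates. An exon of 111 nt at chr1:20892619-20892729, present in EIF4G3-205, EIF4G3-215 and EIF4G3-218, had a fold enrichment of 2.66 in replicate 1 and 4.41 in replicate 2. It is coding in EIF4G3-205 and EIF4G3-218. The stretch that both replicates called, chr1:20892606-20892712 on the minus strand, is shown because this exon is spliced into only some transcripts, again with exon bases in capitals.
EIF4G3 exon outside the canonical transcript: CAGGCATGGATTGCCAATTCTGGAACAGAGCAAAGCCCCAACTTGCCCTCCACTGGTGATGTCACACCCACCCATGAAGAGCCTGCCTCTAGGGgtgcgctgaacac
An exon that starts at position 21111323 of chromosome 1 and belongs to EIF4G3-202, EIF4G3-209, EIF4G3-217 and EIF4G3-218 had 3.48 and 4.59, with a caller q of 0.0801 and 0.00267. The summits there lay outside the CDS of all 4 transcripts. The peak lists do not say which transcripts the recovered RNA came from.

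The paralogs were next compared exon by exon, pairing coding exons through an alignment of the proteins. EIF4G1 and EIF4G3 shared 55.5% of 1466 aligned residues, and 29 of the 31 coding exons of EIF4G1 had a partner among the 33 of EIF4G3. In 11 pairs the exons had the same length. None of the 29 pairs had a summit in both genes. The EIF4G3 exon had a summit in 26 of them, in 20 in both replicates, and the EIF4G1 exon in 0. As EIF4G1 had no peak on any exon, its side of every pair was set beforehand, and the pairing shows only which EIF4G3 exons had a summit. The pairs with the most similar protein sequence are given next. The highest identity was in exon 18 of EIF4G1 and exon 22 of EIF4G3, at 91.1% of residues, and the EIF4G3 exon had a fold enrichment of 3.02 and 2.45. Exons 8 and 12 followed at 90.3%, with 3.70 and 4.48 on the EIF4G3 side. Exons 19 and 23 were next at 88.6%, with 2.64 and 3.68. The peaks on these EIF4G3 exons were weak, as none had a caller q of at most 0.05 in either replicate.

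The pair of exons 18 and 22 is shown because nearly the same protein sequence was encoded with a weak peak called in EIF4G3 and none in EIF4G1. The EIF4G3 exon lies at chr1:20864476-20864712 on the minus strand and the EIF4G1 exon at chr3:184324878-184325114 on the plus strand, and all bases are coding.
EIF4G3 exon 22, fold enrichment 3.02 and 2.45: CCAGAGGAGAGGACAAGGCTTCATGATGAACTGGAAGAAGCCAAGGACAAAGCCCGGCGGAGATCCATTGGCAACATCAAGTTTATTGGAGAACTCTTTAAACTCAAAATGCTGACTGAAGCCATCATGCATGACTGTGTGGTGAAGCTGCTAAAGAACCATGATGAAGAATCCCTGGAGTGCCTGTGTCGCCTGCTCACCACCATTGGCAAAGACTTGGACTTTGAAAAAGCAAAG
EIF4G1 exon 18, no peak: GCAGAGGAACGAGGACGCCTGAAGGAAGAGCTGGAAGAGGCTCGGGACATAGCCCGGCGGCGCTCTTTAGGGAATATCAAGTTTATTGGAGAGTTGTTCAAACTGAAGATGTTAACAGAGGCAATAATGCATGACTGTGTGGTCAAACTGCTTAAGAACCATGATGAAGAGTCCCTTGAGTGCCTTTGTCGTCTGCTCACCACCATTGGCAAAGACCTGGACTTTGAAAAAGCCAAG
Both exons have 237 nt, and 191 bases were the same, an identity of 80.6%. Their GC content was 47.3% in EIF4G3 and 48.5% in EIF4G1. Both held GGAC at 3 positions and TGGAC at 1.

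Over all pairs, the introns beside the exons differed in length. The shorter of the introns beside an exon had a median length of 152 nt in EIF4G1 and 1731 nt in EIF4G3, and it was longer in EIF4G3 in 29 of 29 pairs. For exons 18 and 22 it was 154 and 403 nt. The GC content of the exon was higher in EIF4G1 in 26 of 29 pairs, with medians of 56.1% and 45.5%.

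**Figure D3:**
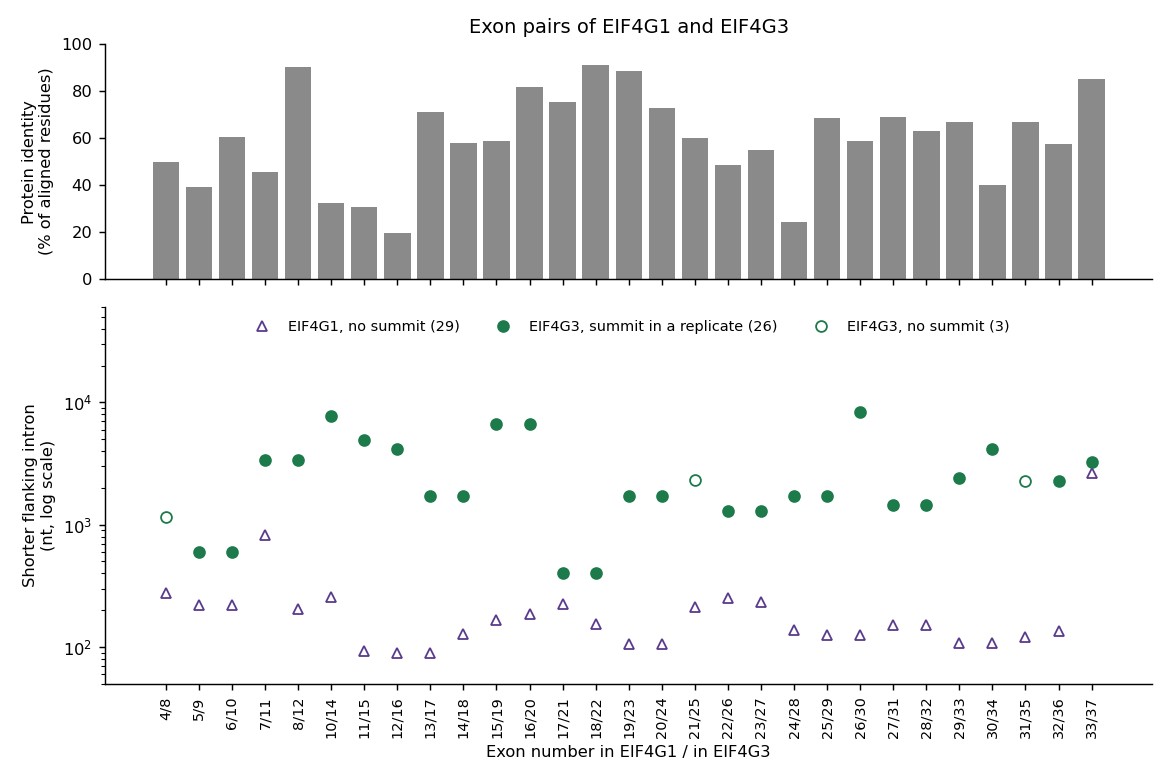
The 29 coding exon pairs of EIF4G1 and EIF4G3, in the order of the mRNA. The upper panel gives the protein identity of each pair in percent of aligned residues, and the lower panel gives the length of the shorter flanking intron in nt on a log scale, with triangles for EIF4G1 and circles for EIF4G3. Filled symbols mark exons with a summit in at least 1 replicate, which were 26 of the EIF4G3 exons and 0 of the EIF4G1 exons.

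EIF4G2 was more distant, with 31.4% identity to EIF4G3 over 793 residues and 32.1% to EIF4G1 over 834. Of its 14 exon pairs with EIF4G3, the EIF4G3 exon had a summit in 14 and the EIF4G2 exon in 1. That was exon 19, paired with exon 34 of EIF4G3 (26.7% identity) and exon 30 of EIF4G1 (31.8%). The EIF4G2 peak had a fold enrichment of 2.04, a −log10 p of 2.26 and a caller q of 1, and did not overlap a peak of replicate 2. Exon 34 of EIF4G3 had a fold enrichment of 3.96 in replicate 1 and no peak in replicate 2. The EIF4G2 peak, at chr11:10799615-10799721 on the minus strand and wholly within the CDS, is shown as the only one outside EIF4G3.
EIF4G2 exon 19, fold enrichment 2.04 in replicate 1: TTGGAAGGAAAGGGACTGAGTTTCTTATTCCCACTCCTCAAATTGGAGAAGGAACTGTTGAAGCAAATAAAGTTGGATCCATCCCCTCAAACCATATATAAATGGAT
It contained GGAC once. With a fold enrichment higher than in only 2.51% of peaks of its list and no peak in the other replicate, this was one of the weakest calls.

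The 3 genes differ in architecture, and the share of genes with peaks varied with it. Protein-coding genes were ordered by gene span and split into 10 groups of equal size. The share with an exonic summit in both replicates was 1.45% in the shortest group, rose to 51.9% in the ninth and was 44.8% in the tenth. EIF4G2 fell into the third group (10.5%), EIF4G1 into the fifth (25.7%) and EIF4G3 into the tenth. Among genes with at least 20 exons in the same groups, the share was 14.7% of 34 genes for the group of EIF4G2, 37.9% of 140 for that of EIF4G1 and 53.1% of 782 for that of EIF4G3. The share fell with the GC content of the mRNA, from 40.4% in the group with the lowest GC content to 10.8% in that with the highest. EIF4G1, at 56.7% GC, was in group 8 of 10 by GC content (20.4%), EIF4G3, at 46.3%, in group 5 (31.1%) and EIF4G2, at 43.4%, in group 3 (35.8%). By mRNA length the share rose from 3.59% in the group with the shortest mRNAs to 57.2% in that with the longest. EIF4G1 and EIF4G3 were both in group 9 by mRNA length (52.5%), and EIF4G2 was in group 7 (40.3%). By exon number it rose from 5.99% in the lowest group to 53.6% in the highest. EIF4G1 and EIF4G3 were both in group 10 by exon number, and EIF4G2 was in group 9 (49.1%). Exons make up 1.73% of the EIF4G3 gene, 26.1% of EIF4G1 and 32.0% of EIF4G2.

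**Figure D4:**
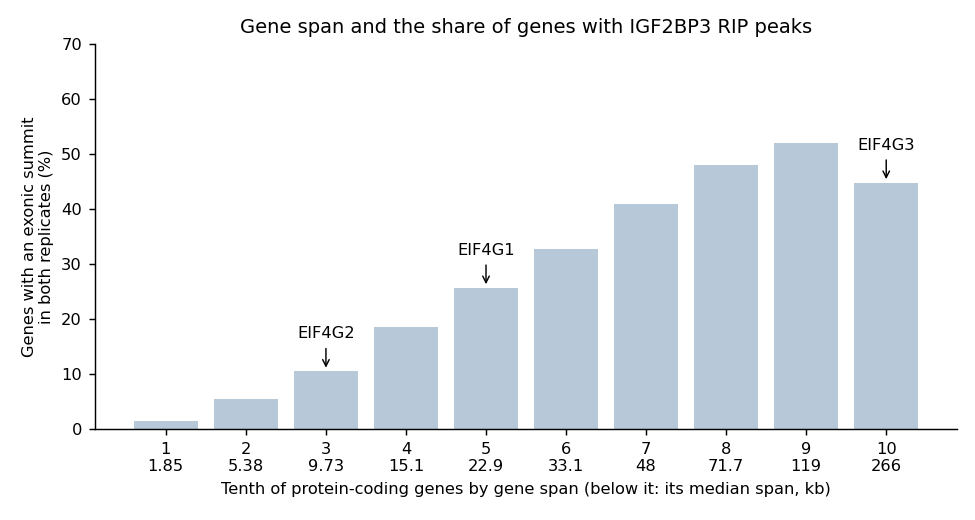
Share of protein-coding genes with an exonic IGF2BP3 RIP summit in both replicates (y axis, percent) in 10 groups of equal size ordered by gene span (x axis, with the median span of each group in kb). Arrows mark the groups of the members: 10.5% of genes for EIF4G2, 25.7% for EIF4G1 and 44.8% for EIF4G3.

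In its own group, EIF4G3 was still far from typical, but no weight can be put on this because the gene was chosen from these same lists. Genes of that group with at least 20 exons had a median of 2 exonic peaks in each replicate, against 34 and 30, and 42.5% of them had none in either. The highest counts among them were 86 in replicate 1 and 92 in replicate 2. Over all 2591 genes with at least 20 exons, the median share of exons with a summit was 6.25% and 5.56%. EIF4G3, at 86.5% and 73.0%, was at the 97.5th and 93.5th percentile, with 66 and 169 genes above it. As background, MACS2 estimates the local background of a peak from windows of the genome around it, introns included. The part of gene span, intron length, mRNA length, exon number, GC content and RNA level in the difference between the paralogs was not tested. Of the 10 nearest coding genes, 3 had exonic peaks in both replicates around EIF4G3 (ECE1, HP1BP3 and NBPF3), 1 around EIF4G1 (CLCN2) and 4 around EIF4G2 (AMPD3, CTR9, RNF141 and SBF2). The share over all coding genes was 28.0%. The farthest of these neighbours lay 298 kb from EIF4G3, 55.7 kb from EIF4G1 and 543 kb from EIF4G2.

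GGAC, the core of the m6A motif, was sought in windows of spliced mRNA reaching 50 nt to either side of each EIF4G3 summit on the sense strand, leaving out 1 summit too close to the mRNA end. It was present in 12 of 31 windows in replicate 1 (38.7%) and 13 of 28 in replicate 2 (46.4%), against 32.0% of the windows around all summits on coding mRNAs in each replicate. The longer TGGAC, which contains GGAC, was in 12.9% and 21.4%, against 12.9% and 12.9%. Of the sequences with CA that IGF2BP proteins are known to bind, CATT was in 19.4% and 35.7% of the EIF4G3 windows, against 33.3% and 33.7%. CATC was in 32.3% and 25% (38.9% and 38.4% of all windows), CATA in 25.8% and 21.4% (19.4% and 19.6%) and CACTC in 3.23% and 0% (8.74% and 8.32%). The median GC content was 47.5% in the EIF4G3 windows and in all windows. Windows of neighbouring short exons share bases, and the direction of CATT differed between the replicates. That of CATA turned with the width of the window, since windows reaching 100 nt to either side held it in 32.3% and 25% for EIF4G3, against 34.0% and 34.4% of all windows.

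Among the 5619 coding genes with peaks in both replicates, the genes most like EIF4G3 were sought by the highest fold enrichment and the summits per kb of mRNA in each replicate. The nearest was SEC24B, a cargo-binding subunit of the COPII coat, with a highest fold enrichment of 10.8 and 9.77 and 25 and 26 peaks. SAP130, a subunit of the Sin3 histone deacetylase complex, had 9.48 and 7.94, with 21 and 22 peaks. BIRC6, a large ubiquitin-conjugating enzyme and inhibitor of apoptosis, had 8.73 and 7.18, with 72 and 71 peaks. The distances over these 4 values, each scaled to an SD of 1, were 0.682, 0.802 and 1.13. Exons with a summit, whose number goes with the summits per kb used to find these genes, were 23 and 24 of 24 in SEC24B, 20 and 20 of 21 in SAP130, and 70 and 69 of 74 in BIRC6.

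To place the family among the proteins it works with, 48 genes were listed by role. An exonic peak was present in 25 in replicate 1, in 23 in replicate 2 and in 21 in both (43.8%, against 28.0% of coding genes), while 21 had none. The highest fold enrichment in the list was 5.63 in replicate 1 and 5.51 in replicate 2. No gene thus reached EIF4G3, but no weight can be put on this because EIF4G3 was picked for that value. Among cap-binding proteins, 3 of 5 genes had peaks in both replicates, with 4.25 and 3.68 for EIF4E and 4.18 and 3.08 for NCBP1, a subunit of the nuclear cap-binding complex. EIF4E2 and NCBP2 had none. Among eIF4A, its cofactors and other helicases, 1 of 6 did, the helicase DDX3X at 2.81 and 2.88. EIF4A1, EIF4A2, EIF4B and EIF4H had none. Among poly(A)-binding proteins and their partners, 3 of 5 did, led by PAIP2B at 3.33 and 2.53 and PAIP1 at 2.08 and 2.31, and PAIP2 had none.

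The list also held regulators and further subunits. Of 5 repressors that bind eIF4E, 3 had peaks in both replicates. EIF4EBP2 had 9 in each (3.54 and 4.04) and EIF4ENIF1, which shuttles eIF4E into the nucleus, 9 in each (3.37 and 3.30), whereas EIF4EBP1 and EIF4EBP3 had none. All 4 genes of the group of kinases and the mTORC1 scaffold did, led by MTOR with 38 and 37 peaks (5.52 and 5.51) and MKNK1, which phosphorylates eIF4E, with 8 and 4 (5.63 and 3.94). Of 13 eIF3 subunits, 3 did, led by EIF3L at 4.25 and 4.05 and EIF3A at 3.53 and 3.68. EIF3B, EIF3D, EIF3F, EIF3G, EIF3H, EIF3I, EIF3K and EIF3M had none. Of 10 other proteins with MIF4G, MA3 or W2 domains, 4 did, led by BZW1 at 3.60 and 3.07 and UPF2, a nonsense-mediated decay factor, at 3.37 and 2.93, while EIF2B5, EIF5, MIF4GD and NOM1 had none. The genes with peaks in both replicates had a median span of 49.9 kb and those with none 22.5 kb.

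**Figure D5:**
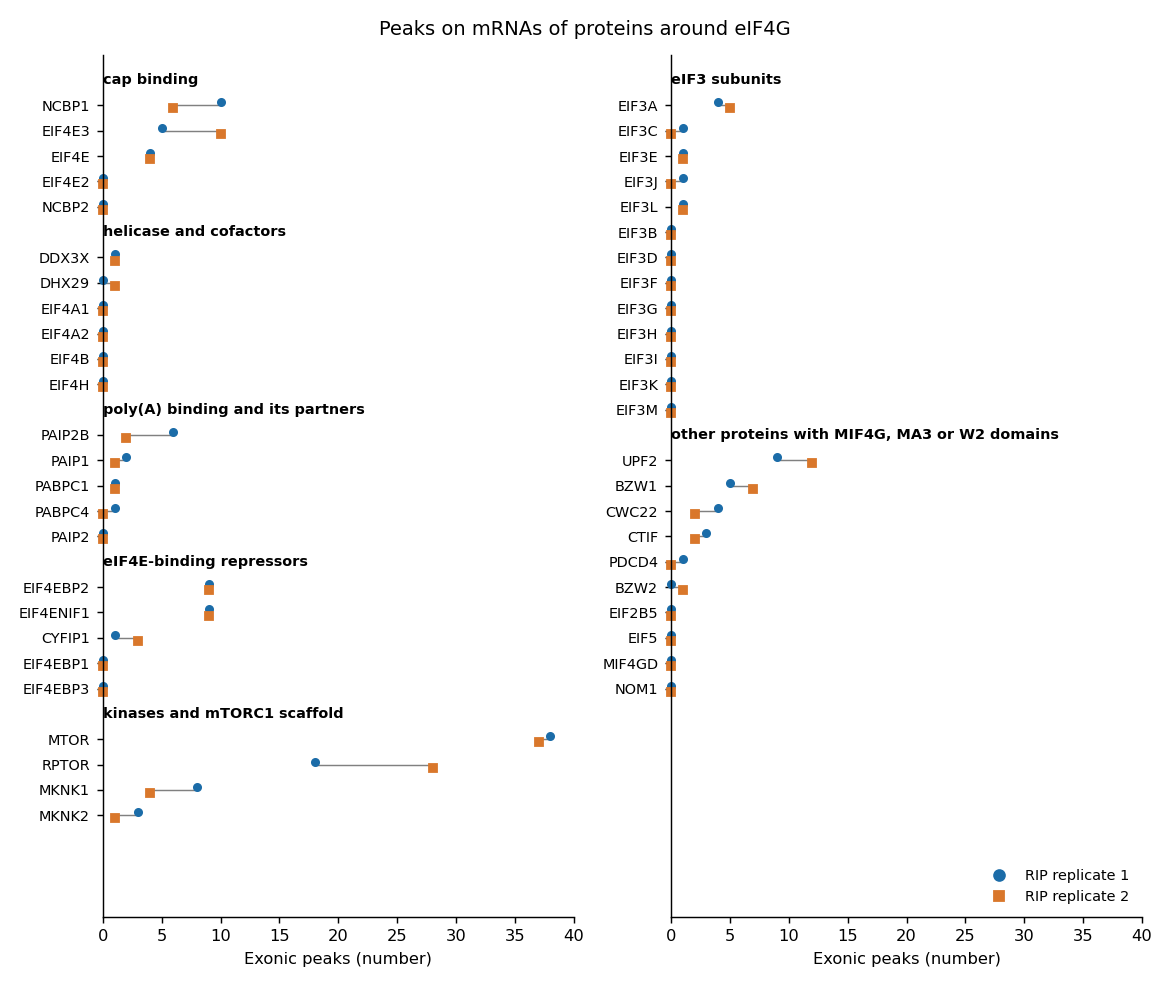
Number of exonic IGF2BP3 RIP peaks (x axis) on 48 genes of proteins that work with or resemble eIF4G, grouped by role. Circles are replicate 1 and squares replicate 2, joined by a line. MTOR had the most at 38 and 37, and 21 genes had 0 in both.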

How the data were processed

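IGF2BP3 RIP-seq of OE-19 cells was analysed from 1 peak list per RIP replicate, each called on its own sample rather than on a pool. The study's methods name Tophat2 and MACS2 with default settings, whereas the processing notes list fastp, HISAT2, MACS2 and hg38. The control library of the caller, and whether p or q set the limit of the lists, are not given in the sources used here. The lowest deposited −log10 p was just above 2 in both lists. Per peak, the authors deposited a fold enrichment (a linear ratio of RIP pileup to local background at the summit), a −log10 p and −log10 q from the caller, and a score, which was not used. Read depth is unknown, so no counting interval is given.

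A peak was assigned to a gene when its summit lay in a GENCODE 44 exon, without regard to strand, since the lists carry none. Canonical transcripts gave mRNA positions. An overlap of 1 bp or more made peaks of the replicates shared. Coding exons were paired as reciprocal best partners in local protein alignments (Biopython 1.88). Other copies of the mRNAs were sought with minimap2 2.31-r1302. The members and lists were chosen with earlier results of these data known. Named genes were the members, the 2 genes with the highest mean fold enrichment in each role among those with peaks in both replicates, all genes of a role without a peak, and the 3 genes most similar to EIF4G3. Cell type markers are named in addition, as are neighbouring genes with peaks, which were named after their values were seen. The scripts were tested on simulated data. No test between groups was made. Alternatives were a caller q of at most 0.05, a fold enrichment of at least 5, other overlap and assignment rules, another alignment, other windows and leaving out each replicate. Sequences were read from the hg38 genome. Scripts ran on pandas 2.3.3, pysam 0.24.0, scipy 1.17.1, numpy 2.4.6 and matplotlib 3.10.9 under Python 3.11.15.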

Additional observations from a re-analysis of the deposited data

Results flagged for a closer look

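Outside the exonic summits that define the family, 1 summit on the EIF4G3 gene lay in an intron, in replicate 2. It drew attention because it is a signal outside the exonic peaks compared here. It lay 7 nt from exon 27, its fold enrichment was 2.77 and its caller q was 1. The peak itself covered all of exon 27, where replicate 1 had a summit with a fold enrichment of 2.34 and a caller q of 1.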

How the results depend on the processing

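The values rest on 2 RIP replicates of one cell line, on the authors' peak calls and on lists with a lenient limit, and the read depth behind them is unknown. No paired analysis was possible because only the RIP samples had values here and no result came from a test. Of 55 values under other settings, 43 stayed within 1.5 times for a count, or within the spread between replicates for a share or fold enrichment, and 12 did not. Leaving out a replicate could not take a share or fold enrichment out of that spread, since a mean of 2 values then moves by less than their SD. Shares and fold enrichment of EIF4G2 came from replicate 1 alone, so leaving out replicate 2 could not change them. Such values stayed by construction and say nothing about robustness. The count of exonic peaks of EIF4G3, 32 on average, was 5.5 with a caller q of at most 0.05 and 4.5 with a fold enrichment of at least 5. That of EIF4G2, 0.5, was 0 under either limit and 0 for peaks that overlapped the other replicate, and ranged from 0 without replicate 1 to 1 without replicate 2. The share of EIF4G3 peaks overlapping the other replicate, 89.3%, was 78.4% when 50% of both peaks had to overlap and 83.0% for summits within 100 nt. The share of EIF4G3 summits in the CDS, 83.3%, was 87.5% with a caller q of at most 0.05 and 84.9% for overlapping peaks. The share of windows with GGAC over the summits of EIF4G3 and the single one of EIF4G2, 42.0%, was 75% in windows reaching 100 nt to either side, where the share of all windows was 53.2% and 53.4%. Limits and wider windows move these values by their own construction, as they remove peaks or add bases. EIF4G1 stayed at 0 peaks under every setting run, and the exon pairs of EIF4G1 and EIF4G3 with a summit in both genes stayed at 0. No peak of either list touched the EIF4G1 gene, so none of these settings could have given another value. These values are among the 43 that stayed. Pairing exons by CDS bases gave 22 pairs, all 22 of them among the 29 from the proteins. No value could be given for fold enrichment or shares of EIF4G1, which had no peak, or of EIF4G2 without replicate 1.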
